A study of Mus musculus with 15 samples.

Results

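HY19636 cells kept without glutamine (Gln) for 24 h were compared with untreated HY19636 cells, 3 cultures of each, which are 6 of the 15 samples of the series. HY19636 is a murine pancreatic ductal adenocarcinoma (PDAC) line that was isolated from a tumor of an engineered C57BL/6 mouse whose alleles include p53 L/+ and Ptf1a-Cre. Both groups are cultures of this 1 line, so they share its genetic lesions, and other lines or tumors were not compared. Cells grew as monolayers in DMEM with fetal serum, and the labels do not say whether the serum of the Gln-free cultures was dialyzed. The control cultures carry the treatment label CNT with no time. Their columns in the deposited table are headed VEH, a name the labels give to a group of tumors, and were taken as the CNT cultures because the table is named for CNT. A further 3 cultures of the line received DON (6-diazo-5-oxo-l-norleucine, a Gln analog that blocks Gln-using enzymes) at 25 µM for 24 h and are used for a direct comparison, and the other 6 samples are tumors that are not used. Genes were taken if their normalized count averaged at least 10 over the 6 libraries, which kept 13390 of 55291 genes. A normalized count is the number of reads of a gene divided by 1 size factor per library.

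Gln feeds cells in several ways. Amidotransferases take its amide nitrogen to make asparagine, purines, pyrimidines and hexosamines, glutaminase turns it into glutamate, and glutamate feeds the tricarboxylic acid (TCA) cycle, proline, other amino acids and glutathione. When an amino acid runs short, uncharged tRNA activates the kinase GCN2, eIF2α is phosphorylated, and translation of most mRNAs slows while that of ATF4 rises. ATF4 then raises genes for amino acid synthesis, uptake and tRNA charging, a program known as the integrated stress response (ISR). Other programs read out here include the sterol-sensing SREBP factors, the oxygen-sensing HIF factors, the unfolded protein response of the endoplasmic reticulum (ER) and the NF-Y, E2F and DREAM factors that time the cell cycle.

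The control libraries held 27111586, 27233914 and 48155949 reads, and the Gln-free libraries 28169155, 28395416 and 28921825. No source says that the cultures of a group were grown independently, so p-values measure the spread between these samples, which may be technical. RNA levels were scaled so that the typical gene did not change, and a change in total RNA per cell could not be seen. All 10 markers of pancreatic tumor epithelium were above 15 normalized counts in every control library. In Gln-free cells this held for all but Cldn4, which had 4.18, 2.06 and 2. Of 12 immune markers, 11 stayed under 15 normalized counts in every library and 6 were at 0, as did 8 of 10 fibroblast markers, with 5 at 0, and 6 of 10 endothelial markers, with 2 at 0. Of 10 markers of acinar cells, 8 stayed under 15 and 4 were at 0. The sum of the immune markers was 67.7 to 93.2 in control cells and 33.0 to 52.2 in Gln-free cells. The fibroblast sum was 461 to 610 and 1063 to 1112, nearly all of it Pdgfra, and the endothelial sum was 1092 to 1276 and 539 to 616, mostly Flt1.

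Promoters of genes from several lists are shown first, with short motifs marked. Bases before the transcription start were taken from RefSeq (build GRCm38.p6), in which 10025 of the 13390 genes had an entry, and are written 5′ to 3′ on the gene's own strand. Capitals mark the C/EBP-ATF composite element, searched as TGATGNAA on both strands, in 4 genes of the amino acid response.
Atf3 (chr1:191183334-191183483, minus strand): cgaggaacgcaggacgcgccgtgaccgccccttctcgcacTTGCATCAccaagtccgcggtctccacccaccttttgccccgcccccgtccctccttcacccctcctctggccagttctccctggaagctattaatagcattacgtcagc
Chac1 (chr2:119351042-119351241, plus strand): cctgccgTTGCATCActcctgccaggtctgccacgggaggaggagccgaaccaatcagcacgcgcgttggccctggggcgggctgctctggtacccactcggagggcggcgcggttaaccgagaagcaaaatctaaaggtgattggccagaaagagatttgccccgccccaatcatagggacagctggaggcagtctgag
Asns (chr6:7693210-7693359, minus strand): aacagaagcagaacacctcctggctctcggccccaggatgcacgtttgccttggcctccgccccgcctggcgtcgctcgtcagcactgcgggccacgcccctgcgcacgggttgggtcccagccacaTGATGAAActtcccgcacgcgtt
Aars (chr8:111033692-111033841, plus strand): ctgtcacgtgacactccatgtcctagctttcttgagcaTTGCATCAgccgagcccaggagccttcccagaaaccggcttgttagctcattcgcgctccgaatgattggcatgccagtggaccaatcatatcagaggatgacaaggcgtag

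In the promoter of Hspa5, which encodes the main ER chaperone BiP, capitals mark the CCAAT box, the site of NF-Y and a part of ER stress elements. In Hmgcs1, an early enzyme of cholesterol synthesis, they mark CCAAT boxes and the sterol regulatory element core, searched as TCACNCCAC. In Ccnb2 and Cdc20, which drive mitosis, they mark CCAAT boxes and the cell cycle homology region, searched as TTTGAA.
Hspa5 (chr2:34771870-34772089, plus strand): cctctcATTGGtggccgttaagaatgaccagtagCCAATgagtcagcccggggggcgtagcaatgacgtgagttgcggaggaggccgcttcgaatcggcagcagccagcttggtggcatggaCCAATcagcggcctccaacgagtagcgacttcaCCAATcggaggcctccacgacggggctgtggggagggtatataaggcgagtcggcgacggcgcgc
Hmgcs1 (chr13:119690111-119690350, plus strand): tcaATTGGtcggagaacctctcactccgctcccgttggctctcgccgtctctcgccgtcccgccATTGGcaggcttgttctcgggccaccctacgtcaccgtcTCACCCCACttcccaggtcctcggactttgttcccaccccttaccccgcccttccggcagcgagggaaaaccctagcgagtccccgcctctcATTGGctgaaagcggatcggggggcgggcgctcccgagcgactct
Ccnb2 (chr9:70421555-70421734, minus strand): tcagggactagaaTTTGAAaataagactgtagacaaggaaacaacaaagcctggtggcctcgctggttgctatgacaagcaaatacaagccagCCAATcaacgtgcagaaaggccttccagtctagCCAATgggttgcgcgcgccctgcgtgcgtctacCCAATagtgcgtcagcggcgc
Cdc20 (chr4:118437344-118437463, minus strand): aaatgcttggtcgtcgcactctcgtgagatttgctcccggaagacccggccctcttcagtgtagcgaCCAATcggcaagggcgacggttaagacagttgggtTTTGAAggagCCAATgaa

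A window of 250 bases before to 50 bases after the start was searched, and a gene counted if any of its listed starts held the motif. The C/EBP-ATF element was found in 6 of 17 ISR regulators with an entry (Atf3, Jdp2, Nupr1, Trib3, Chac1 and Vldlr) and in 5 of 13 cytosolic tRNA synthetases (Aars, Gars, Iars, Tars and Yars), against 2.67% of the genes tested and 4.51% of all 27025 genes with an entry. It was found in 3 of 13 amino acid transporters, in 1 of 12 asparagine, serine and one-carbon enzymes (Asns), in 0 of 4 ISR secreted factors and in 0 of 14 mitochondrial tRNA synthetases. Pck2, which fell, also carried it. The CCAAT box was found in 16 of 17 cholesterol genes, 19 of 22 ER chaperone genes and 23 of 29 mitotic genes, against 43.4% of the genes tested and 41.1% of all. The cell cycle homology region was found in 21 of 29 mitotic genes but in 5 of 30 replication genes, against 14.3% and 20.2%. The E2F core, searched as TTNGCGC, was found in 14 of 30 replication genes and 4 of 29 mitotic genes, against 12.8% and 7.24%. The sterol element core was found in 1 of 17 cholesterol genes, Hmgcs1, against 1.37% and 1.44%. The E-box, searched as CACGTG, was found in 12 of 29 lysosome genes and 9 of 34 ribosome biogenesis genes, against 11.7% and 8.09%. Without the 50 bases after the start the counts fell to 3 tRNA synthetases, 12 mitotic genes with the homology region, 8 replication genes with the E2F core and 2 ribosome biogenesis genes. All motifs were searched on both strands, and matches of different motifs may overlap. Among all genes that moved at least 2-fold, the CCAAT box was found in 42.8% of those called higher and 46.8% of those called lower. These shares lay near the 43.4% of the genes tested. For the homology region they were 14.1% and 17.6%, and for the E2F core 11.4% and 10.3%. For the C/EBP-ATF element they were 4.14% and 2.47%. The CCAAT box thus stood in lists that rose and in lists that fell. Further lists also differed from the genes tested. The E-box was found in 5 of 12 genes of the MYC network and 4 of 11 AP-1 and EGR factors. It was found in 0 of 20 NRF2 and glutathione genes. The CCAAT box was found in 18 of 26 genes around the TCA cycle and 3 of 16 receptor tyrosine kinases and ErbB ligands. The E2F core was found in 7 of 22 ER chaperone genes and 0 of 11 ERK feedback genes. A match describes the letters of a window and is not a binding site.

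Withdrawal of Gln changed most expressed genes. With limma on log2(normalized count + 1), 9292 of 13390 genes (69.4%) passed an adjusted p of 0.05. Of these, Gln-free cells had 4625 (34.5%) at a higher and 4667 (34.9%) at a lower level. Such genes are termed called, and fold changes on this scale understate those of genes with low counts. A fold change of at least 2 was reached by 1870 higher genes (14.0%) and 2219 lower genes (16.6%), and of at least 4 by 414 and 786. The 3 Gln-free values lay wholly above or below the 3 control values for 73.6% of genes, and the typical residual SD of a gene (median) was 0.16 in log2 units. Separate groups in a single gene were thus the usual case. Over all genes the log2 fold change had a median of 0.01. Because so many genes were called, the lists of genes below are described by counts and medians beside these shares.

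Rises and falls were ranked among called genes whose mean reached 100 and whose groups did not overlap. Over all genes tested the log2 fold change reached 6.06. Within the ranking the largest rise was that of Stbd1 (ENSMUSG00000047963, chromosome 5 from 92603041 to 92606579, GRCm38), which encodes a glycogen-binding protein. It had 19, 21.2 and 17.5 normalized counts in control cells and 985, 1096 and 1284 in Gln-free cells. Its log2 fold change was 5.79, with a standard error of 0.178 (limma, adjusted p = 1.05e-10). The groups were 58.3-fold apart, with no overlap. Cyp1a1 (log2 fold change 4.89) encodes a cytochrome P450 of the aryl hydrocarbon receptor pathway, Angptl8 (4.42) a hormone that regulates lipoprotein lipase, Ereg (4.26) the EGF receptor ligand epiregulin and Ptgs2 (3.96) the prostaglandin enzyme COX-2. The others among the 10 largest rises were Ddit3 (4.48), Gdnf (4.10), a neurotrophic factor, Snhg1 (4.08), a snoRNA host transcript, Angptl6 (3.99) and Adamts6 (3.80), a secreted metalloprotease. Ereg rose from 349.6, 370.4 and 618 to 8979, 8221 and 7690.3 normalized counts. Ptgs2 rose from 935, 1112 and 1444 to 20432, 17300.1 and 16007. All Gln-free cultures were above all control cultures in each of the 10 genes, as the ranking required.

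The largest falls ended near 0. Slc26a9, an epithelial chloride transporter, had 743, 842 and 724 normalized counts in control cells and 0, 0 and 2.0 in Gln-free cells, 2496 reads against 2 in all. The ratio was 1110. Most low read counts were even, so the counts were halved to 1248 and 1 for an exact 95% counting interval, which ran from 199 to 43889 and covers counting error only. Slc16a3, the lactate exporter MCT4, fell from 2399.9, 3242 and 2196 to 42.8, 35.1 and 22 (log2 fold change -6.28, adjusted p = 2.35e-10, limma). Aldoc, an aldolase of glycolysis, fell from 869.9, 1131 and 911 to 10.4, 8.26 and 12 (log2 fold change -6.44). Cell contacts gave 2 of the 10, Tjp3, a tight junction scaffold (279.7, 179 and 170.4 to 2.09, 0 and 2.0), and Gjb1, a gap junction subunit (276, 231 and 162 to 6.27, 0 and 12). The remaining 5 were Hsd17b14 (log2 fold change -6.83), Depp1 (-6.56), a FOXO target linked to autophagy, Ppp1r1b (-6.45), Mcpt2 (-5.62), which encodes a mast cell protease, and Cd300lb (-5.60), which encodes a myeloid receptor. Mcpt2 and Cd300lb had control values of 197, 267 and 229 and of 277, 310.2 and 314, in cultures where 11 of 12 immune markers stayed under 15. The other immune marker, the macrophage gene Cd68, fell too, from 65.2, 75.5 and 45.7 to 33.4, 19.6 and 32, and its part in these falls was not tested. Fold changes of genes this low in 1 group depend on the pseudocount of 1.

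**Figure D1:**
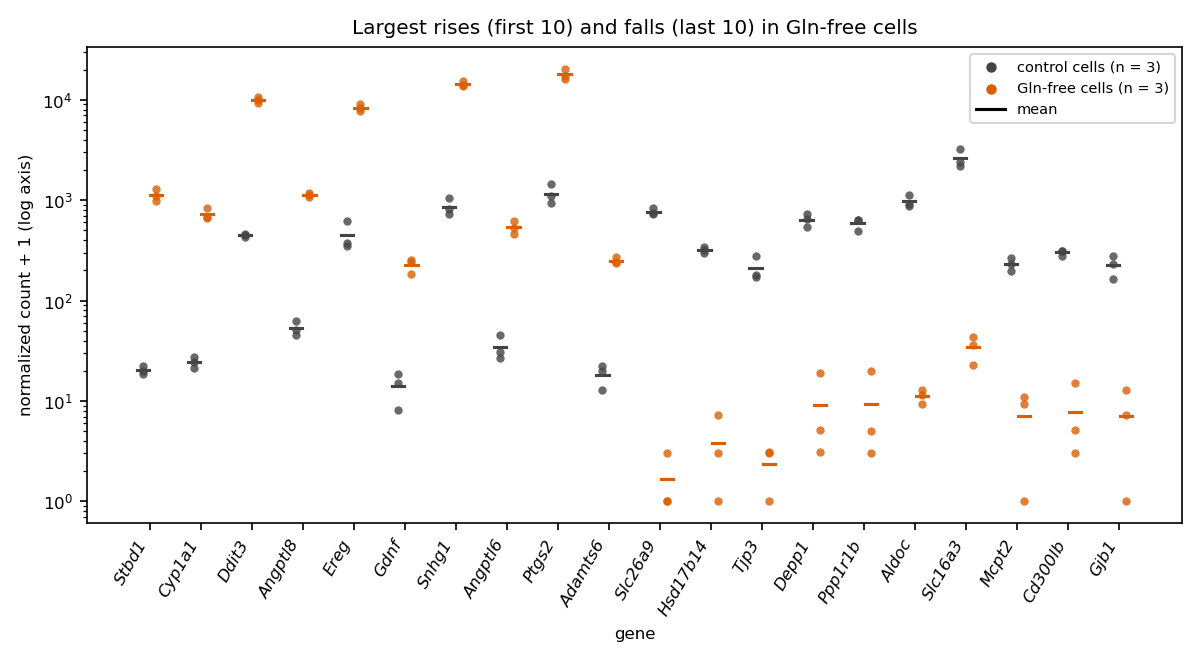
Normalized counts + 1 on a log axis for the 10 genes with the largest rises and the 10 with the largest falls in Gln-free cells, among genes called by limma whose mean reached 100 and whose groups were separate. Points are cultures, short lines are means of 3, and orange Gln-free and gray control points are separate in all 20 genes, as the choice required.

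The lists of genes moved in different directions, as the plot of list members shows. Members named beyond the 4 largest changes of a list, its exceptions and its defining genes were chosen after their values were seen. Medians above a 2-fold rise were found for snoRNA host transcripts (2.23), ISR regulators (1.27) and ISR secreted factors (1.58). Medians below a 2-fold fall were found for cholesterol synthesis (-2.11), mitosis (-1.96), glycolysis (-1.47), fatty acid synthesis (-1.43), keratins and junctions (-1.34) and HIF targets (-1.01).

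**Figure D2:**
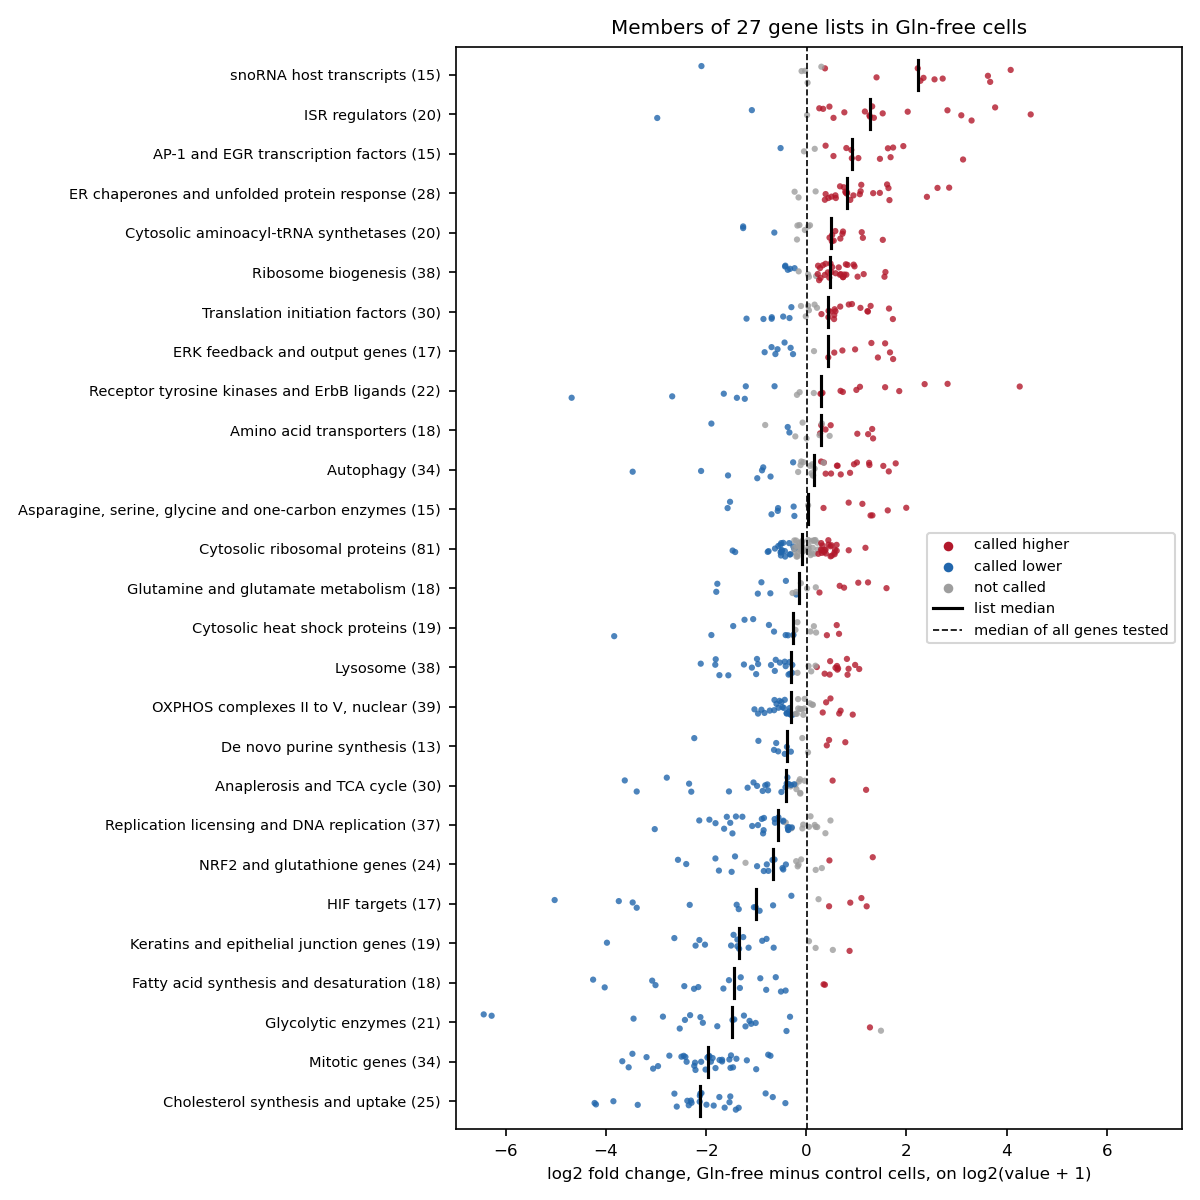
Log2 fold change of Gln-free minus control cells for each member of 27 gene lists, on log2(normalized count + 1), with the number of members tested in parentheses. Red and blue points were called higher and lower by limma, black bars are list medians and the dashed line is the median of all 13390 genes, and every member of the cholesterol and mitotic lists lies to its left.

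ISR regulators rose as a group, with exceptions at its kinase and at an mTORC1 inhibitor. Of 20 members, 17 were called higher and 2 lower, beside 34.5% and 34.9% of all genes. Trib3, a pseudokinase that restrains ATF4, had 1192, 1065 and 928 normalized counts in control and 8725, 8889 and 9495 in Gln-free cells (log2 fold change 3.09, adjusted p = 1.34e-10, limma). Nupr1, a stress cofactor, rose from 1839 ± 111 to 7479 ± 136 (mean ± SD, n = 3), Cebpg, a dimer partner of ATF4, from 1743 ± 317 to 4977 ± 393, and Chac1, which degrades glutathione, from 605 ± 101 to 1352 ± 80.9. Of the 2 eIF2α phosphatase subunits, Ppp1r15a had a log2 fold change of 3.77 and Ppp1r15b, the constitutive one, of 0.26. Eif2ak4, which encodes GCN2, fell from 1146, 1145 and 1223 to 559.8, 535 and 559 (log2 fold change -1.09), and Ddit4, the mTORC1 inhibitor REDD1, fell from 5083, 5918 and 5059 to 612, 678 and 752 (log2 fold change -2.97). The transcript of the ER stress kinase PERK, Eif2ak3, was not called, at 639, 665 and 722 in control and 761, 714 and 584 in Gln-free cells.

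Secreted products of the ISR list followed, with 1 in the other direction. Angptl6, an angiopoietin-like hormone, rose from 26.1, 44.8 and 29.4 to 523, 464 and 622 normalized counts. Adm2, a vasodilator peptide, rose from 199, 244 and 170.4 to 896, 861 and 759.7. Gdf15, a stress hormone, had 79.4, 69.6 and 57 in control and 204, 205 and 207 in Gln-free cells, a 2.99-fold rise. Vegfa, the angiogenic factor, rose 2.31-fold, while Angptl4, an inhibitor of lipoprotein lipase, fell 2.21-fold (log2 fold change -1.15, adjusted p = 6.02e-06, limma).

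Genes for making amino acids were split between 7 higher and 7 lower of 15 tested, with a median of 0.04. Over all genes 34.5% were higher and 34.9% lower. Asns, which uses Gln to make asparagine, had 4498, 3878 and 3173 normalized counts in control and 8739.6, 8664 and 7512 in Gln-free cells, a 2.16-fold rise (adjusted p = 2.59e-06, limma). The mitochondrial folate enzymes Aldh1l2 and Mthfd2 rose by 2.00 and 1.32 on the log2 scale, and Cth, which makes cysteine from cystathionine, rose by 1.63. Of the 3 enzymes of serine synthesis, Psph rose by 0.85 and Psat1 by 0.34, while Phgdh, the first step, had 30067 ± 3649 and 25122 ± 559.9 (log2 fold change -0.25, called lower). Falls were found for the cytosolic folate enzymes Mthfd1 (log2 fold change -0.57) and Shmt1 (-0.69), for the mitochondrial Shmt2 (-0.24, groups overlapping) and Mthfd1l (-0.56), and for Gcat (-1.57) and Cbs (-1.52), of threonine and cysteine metabolism. The calls of Phgdh and Shmt2 were lost when any 1 of the 6 libraries other than control replicate 3 was left out. Genes of serine and folate metabolism thus took both directions within each compartment.

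More genes of amino acid uptake and tRNA charging were called higher than lower. Of 18 amino acid transporters tested, 8 were called higher and 3 lower, beside 34.5% and 34.9% of all genes. The 4 largest rises were those of Slc7a1, for arginine and lysine (log2 fold change 1.33), Slc38a2, which carries Gln and alanine (1.32), Slc1a4, for alanine, serine and cysteine (1.23), and Slc3a2, the heavy chain of several exchangers (1.02). Slc38a2 had 8486, 8290.5 and 10114 in control and 21942, 23899 and 20926 normalized counts in Gln-free cells, with no overlap. Slc1a5, the main Gln importer of many cancer cells, was not called, at 2902, 2717 and 2625 in control and 2743, 2664 and 2865 in Gln-free cells. Slc43a2, a leucine transporter, fell 3.73-fold.

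Of 20 cytosolic tRNA synthetases, 11 were called higher and 3 lower, beside 34.5% and 34.9% of all genes, with a median of 0.49. Aars, for alanine, rose 2.87-fold, Yars, for tyrosine, 2.18-fold and Nars, for asparagine, 2.16-fold. Qars (ENSMUSG00000032604, chromosome 9 from 108507706 to 108515941), the synthetase that charges tRNA with Gln, went the other way. It had 8213, 8278 and 6726 normalized counts in control cells and 3083, 3237 and 3333 in Gln-free cells (log2 fold change -1.26, adjusted p = 1.26e-07, limma). Vars, for valine, fell as well (-1.26), and so did Kars, for lysine (-0.64). The 17 mitochondrial synthetases had 5 higher, 6 lower and a median of -0.12.

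Among genes of Gln and glutamate itself, Gln synthetase fell. Glul (ENSMUSG00000026473, chromosome 1 from 153899944 to 153909723), which makes Gln from glutamate and ammonia, had 10061, 10091 and 8598 in control and 2789, 2724 and 2741 normalized counts in Gln-free cells (log2 fold change -1.80, adjusted p = 2.7e-09, limma). Gls2, which turns Gln into glutamate, fell 3.47-fold. Groups did not overlap in either gene, as in 73.6% of all genes. In proline synthesis Pycr1 rose by 1.60 on the log2 scale. For the aminotransferases, the cytosolic Got1 rose 2.05-fold and its mitochondrial partner Got2 fell 1.87-fold, while the mitochondrial Gpt2 had a log2 fold change of 0.67 and the cytosolic Gpt of -0.97, both called. In the whole list 6 members were higher and 7 lower of 18. Of 11 amidotransferases, 3 were higher and 4 lower, led by Asns and by Ctps2, a CTP synthetase that fell 3.75-fold. Of all genes 34.5% were called higher and 34.9% lower.

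Around the TCA cycle falls prevailed, with 20 of 30 genes lower and 2 higher, beside 34.9% and 34.5% of all genes. The deepest falls were outside the cycle proper. Idh1, the cytosolic isocitrate dehydrogenase that makes NADPH, went from 6725, 6184 and 6763 to 426, 561 and 627 normalized counts (log2 fold change -3.62, adjusted p = 2.24e-10, limma). Slc25a1, which exports citrate from mitochondria, fell from 10542, 10310.0 and 8523 to 1397, 1339 and 1512 (log2 fold change -2.78). Pdk1, a kinase that shuts pyruvate dehydrogenase, fell 10.4-fold and Pdk3 4.96-fold. Idh2, the mitochondrial NADPH-making isoenzyme, fell 5.04-fold and Pck2, which makes phosphoenolpyruvate in mitochondria and is a known ATF4 target, 2.26-fold. The 2 rises were those of Dld and Dlst, subunits of the oxoglutarate dehydrogenase complex, by 1.19 and 0.53. The third subunit, Ogdh, was not called (-0.20). Citrate synthase, Cs, of the cycle itself, had a log2 fold change of -0.76.

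Nucleotide synthesis fell in part. Of 13 purine genes 8 were lower and 3 higher, beside 34.9% and 34.5% of all genes, with a median of -0.39. Prps1, which makes the ribose donor, rose 1.72-fold, Gmps, an amidotransferase, 1.37-fold and Adsl 1.33-fold, while Paics (log2 fold change -0.56), Impdh2 (-0.60), Prps2 (-0.64), Impdh1 (-0.96) and Adssl1 (-2.24) fell. Ppat, the amidotransferase that opens the pathway, was not called, with 2471, 2445 and 2766 in control and 2808, 2669 and 2397 in Gln-free cells. Of 17 pyrimidine and deoxynucleotide genes 9 were lower and 4 higher. Thymidine kinase Tk1 fell from 4696, 4678 and 4417 to 648, 609 and 559.5. The ribonucleotide reductase subunit Rrm2 fell from 12931, 12522 and 13647 to 2869, 2038 and 1894. Rrm2b, its p53-inducible counterpart, rose from 191, 119 and 237 to 784, 679 and 585 (log2 fold change 1.95, adjusted p = 4.17e-06, limma). Tk1 and Rrm2 peak in S phase, whereas Rrm2b serves DNA repair and resting cells.

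In the hexosamine pathway, 3 of 11 genes were higher and 2 lower, beside 34.5% and 34.9% of all genes, and 6 were not called. Gfpt1, its Gln-using entry enzyme, rose by 0.43 on the log2 scale. Gnpnat1, which acetylates glucosamine phosphate, rose from 8.3, 2.36 and 15 to 34.5, 47.5 and 19, and Amdhd2 of the reverse path fell 1.99-fold. Oga, which removes O-GlcNAc, rose from 5171, 5578 and 5962 to 12202, 12744 and 11961, and Ogt, which adds it, was not called at 2519.7, 2430.1 and 3057 in control and 2480.5, 2589 and 2529 in Gln-free cells. Of 9 polyamine genes 4 rose and 5 fell. Those that rose were Amd1, Srm and Odc1 of synthesis and Azin1, which protects ODC (1.28), and those that fell included Oaz1 and Oaz2, which inhibit ODC (-1.03 and -0.73), and Sat1 and Smox of breakdown (-1.07 and -1.12).

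Glycolysis was lower at nearly every step. Of 21 genes for glucose transport, glycolysis and lactate export 19 were called lower, 17 of them at least 2-fold, and 1 was higher, beside 34.9%, 16.6% and 34.5% of all genes. The glucose transporter Slc2a1 went from 5746, 6274 and 5452 to 2971, 2812 and 2879 normalized counts. Among the phosphofructokinases, Pfkl fell from 11282, 12669 and 9921 to 1000.5, 979 and 1112 (log2 fold change -3.45, adjusted p = 8.07e-11, limma) and Pfkm fell 7.21-fold. Gapdh went from 123519, 136221 and 103555 to 28792, 28980.5 and 28536. Ldha, which makes lactate, went from 70259, 75318 and 59242 to 13619, 13267 and 13974. Every Gln-free culture was below every control culture in these genes. Hk2 and Slc16a1, a hexokinase and a lactate carrier, fell least, with log2 fold changes of -0.39 and -0.32. Pfkfb3, which makes the activator of phosphofructokinase, was the member that rose, 2.4-fold, while its relative Pfkfb4 fell 2.77-fold. Eno2 was low and not called (21.3, 2.36 and 11.3 in control and 27.1, 14.4 and 46 in Gln-free cells).

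The branch into the pentose phosphate pathway fell with it. G6pdx and Pgd, its NADPH-making enzymes, fell 5.93-fold and 5.29-fold, and Taldo1 and Tkt 3.36-fold and 2.7-fold. These 4 genes stand in the list of NRF2 and glutathione genes, where 15 of 24 were lower and 2 higher. Over all genes these shares were 34.9% and 34.5%. Hmox1, heme oxygenase, rose 2.51-fold and Sod2 1.38-fold. The glutamate-cysteine ligase subunit Gclm fell (log2 fold change -0.41), and its partner Gclc was not called. Of 17 HIF targets 12 were lower and 4 higher. Egln3, a prolyl hydroxylase, had 1817, 2254 and 1934 in control and 184, 126 and 140.1 normalized counts in Gln-free cells. Bnip3, a mitophagy receptor, had 806, 956 and 1035 in control and 68.9, 80.5 and 103 in Gln-free cells. Ankrd37 had 152, 117 and 150.3 in control and 2.09, 4.13 and 4.0 in Gln-free cells. None of these overlapped between groups, which held for 73.6% of all genes. Vegfa, Ndrg1, Ero1l and Kdm3a rose, by 1.21, 1.10, 0.88 and 0.46 on the log2 scale, and Hif1a itself was not called. Vegfa stands also in the ISR list and Ero1l in the ER list.

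**Figure D3:**
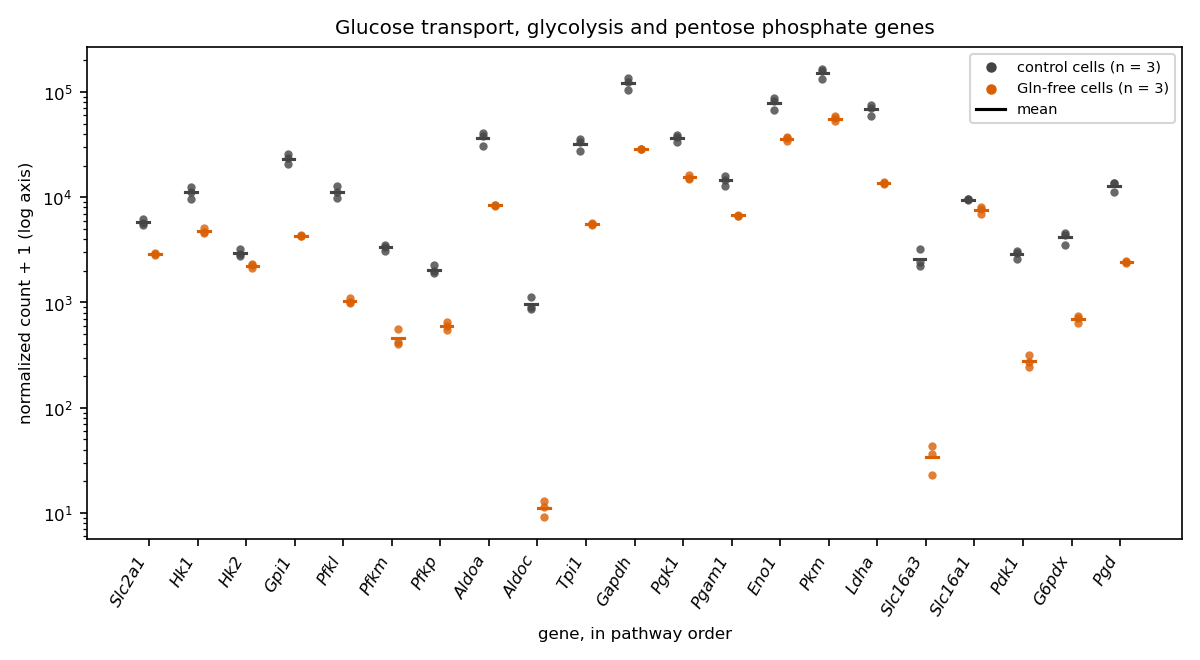
Normalized counts + 1 on a log axis for genes of glucose transport, glycolysis, lactate export and the pentose phosphate pathway and for Pdk1 in 3 control and 3 Gln-free cultures (short lines, means). The Gln-free points lie below the control points at each gene plotted, by the widest margins at Aldoc and Slc16a3. Of the glycolysis list, Pfkfb3, which was called higher, Eno2, which was not called, and Pfkfb4, which fell, are not plotted.

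Genes of lipid synthesis fell. All 25 genes of cholesterol synthesis and uptake were called lower, 22 of them at least 2-fold, beside 34.9% and 16.6% of all genes. Among synthesis enzymes that led the list, Tm7sf2, a sterol reductase, had 1816, 1794 and 1684 normalized counts in control and 87.7, 98.1 and 100.1 in Gln-free cells. Acat2, a thiolase at the entry, had 5614, 5529 and 5110.2 in control and 394, 414 and 322 in Gln-free cells. Nsdhl, a sterol dehydrogenase, had 2791, 2911 and 2552 in control and 249, 252 and 300.3 in Gln-free cells. Each was more than 10-fold lower, with no overlap, as in 73.6% of all genes. The count of Fdps (507, 415 and 435 in control and 20.9, 23.8 and 25 in Gln-free cells) is uncertain because pseudogene copies of the gene can share its reads. The regulator Srebf2 fell 1.76-fold, and Insig1, which retains SREBP in the ER, fell 5.07-fold. Of 4 genes of sterol export and LXR tested, 3 were lower and none higher, with Abca1 at 33.2, 33 and 54.5 in control and 18.8, 16.5 and 16 in Gln-free cells.

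Of 18 genes of fatty acid synthesis and desaturation 16 were lower and 2 higher, beside 34.9% and 34.5% of all genes. The desaturase Fads2 went from 10732, 11499 and 9357 to 559.8, 508 and 581 normalized counts (log2 fold change -4.25, adjusted p = 2.42e-11, limma). Scd2, another desaturase, fell from 106947, 115458 and 102419.7 to 10541, 14356 and 16002. Acss2, which makes acetyl-CoA from acetate, fell 16.5-fold and Lpin1, a phosphatidate phosphatase, 8.44-fold. Fasn, the fatty acid synthase, fell 2.51-fold, and the regulator Srebf1 3.16-fold. Gpam and Acsl4, which esterify and activate fatty acids, rose by 0.37 and 0.35 on the log2 scale.

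Cell cycle genes fell, and the medians of the mitotic and replication lists were far apart. All 34 mitotic genes were called lower, 31 at least 2-fold, beside 34.9% and 16.6% of all genes, with a median of -1.96. Of 37 replication genes 26 were lower and 0 higher, with a median of -0.55. Ccnb2, a mitotic cyclin, had 3462, 3499 and 3212 in control and 369.7, 244 and 206 normalized counts in Gln-free cells. Plk1, a mitotic kinase, had 3301, 3357 and 2761 in control and 278, 288 and 278 in Gln-free cells. Ccnf, an F-box cyclin, had 2972, 3169.7 and 2647 in control and 263, 236 and 249 in Gln-free cells. The groups were far apart in all 3. The proliferation marker Mki67 fell 5.29-fold and Cdk1 2.85-fold, while Ect2, of cytokinesis, fell least (1.66-fold). In the replication list, Lig1, the ligase of lagging strands, fell 8.12-fold, Ccne1 4.31-fold, Uhrf1 3.79-fold and Chaf1b 3.5-fold. Members of the MCM helicase differed, with Mcm6 and Mcm5 at -1.52 and -1.28 as log2 fold changes, Mcm3, Mcm7 and Mcm2 between -0.63 and -0.36, and Mcm4 not called at 6886, 7059 and 7156 in control and 8596, 8273 and 7251 in Gln-free cells. Licensing factors Cdt1 and Cdc6 were not called.

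Of 16 G1 cyclins and CDK inhibitors 10 were lower and 3 higher, beside 34.9% and 34.5% of all genes. Cdkn1a, the CDK inhibitor p21, rose from 1079.7, 1031 and 967 to 3007, 2686 and 2777 (log2 fold change 1.46, adjusted p = 2.45e-08, limma), and Cdk6 and Rb1 rose by 0.41 and 0.37 on the log2 scale. Ccnd1 had 26828, 28801 and 25256 in control and 22502, 22062 and 22684 in Gln-free cells, a log2 fold change of -0.26. The inhibitors Cdkn2c and Cdkn2d fell 2.35-fold and 2.81-fold, and Cdkn1c was near 0 in Gln-free cells, at 4.18, 8.26 and 4.0.

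**Figure D4:**
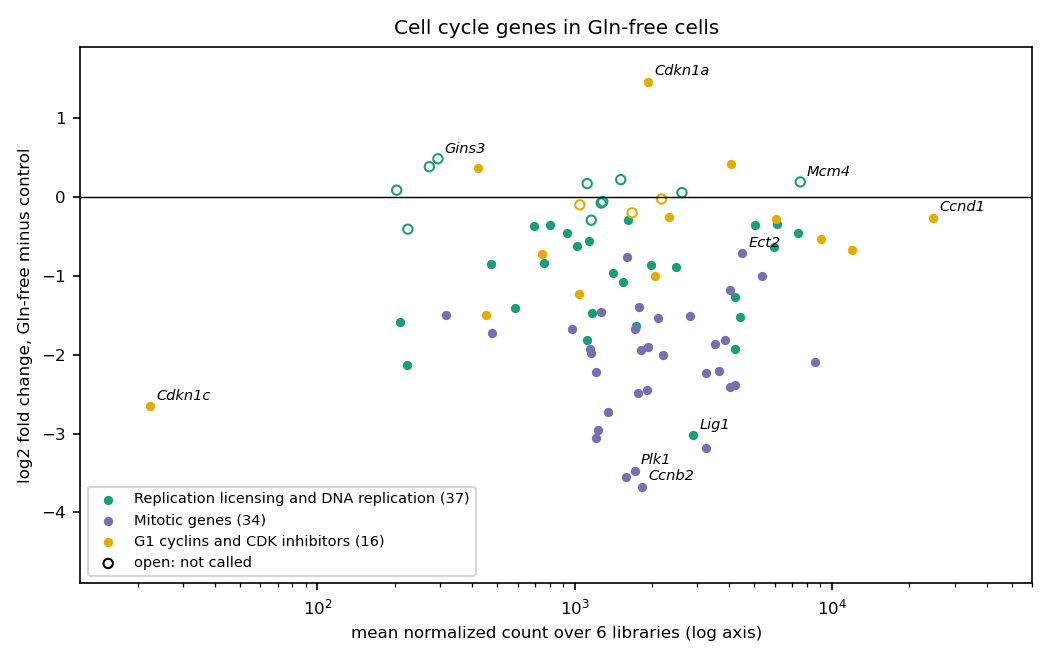
Log2 fold change (Gln-free minus control) against the mean normalized count over 6 libraries, on a log axis, for genes of DNA replication (green), mitosis (purple) and G1 control (yellow), with open points for genes not called by limma. Purple points lie between -0.71 (Ect2) and -3.67 (Ccnb2), green points reach up to 0.48 (Gins3) and Cdkn1a stands highest at 1.46.

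Chaperone lists differed by compartment. In the ER list 25 of 28 genes were called higher and 0 lower, beside 34.5% and 34.9% of all genes, with 11 at least 2-fold. Hspa5 had 21967, 21290.1 and 22517 normalized counts in control and 133976, 115171 and 102075 in Gln-free cells (log2 fold change 2.41, adjusted p = 1.2e-09, limma). Dnajb9, its cochaperone, rose 7.21-fold and Sdf2l1 3.21-fold. Derl3, of ER-associated degradation, rose from 8.3, 14.2 and 6.26 to 54.3, 66.1 and 63.1. The sensor Ern1 rose 2.14-fold and the transcription factor Xbp1 1.59-fold. P4hb, Pdia3 and Sec61b were not called. Cytosolic heat shock genes had 3 higher and 10 lower of 19. Hspb1, the small chaperone HSP27, fell from 3176, 3322 and 2425 to 219, 200.3 and 198. Hspa8, the constitutive HSC70, fell from 104618, 100345 and 89991 to 37476, 33876 and 35854. Hsp90ab1, the constitutive HSP90, fell 2.09-fold, while the inducible Hsp90aa1 rose from 18526, 18420.0 and 26108 to 33855, 32539 and 31506. Cryab, a small heat shock protein, had 21.3, 18.9 and 15.7 in control and 8.36, 4.13 and 2.0 in Gln-free cells. Hspa1a and Hspa1b, which are near-identical and may share reads, fell, with log2 fold changes of -1.23 and -0.75. In mitochondria 5 of 11 genes rose and 1 fell, led by Hspa9 (1.25) and the protease Yme1l1 (1.02), with Trap1 lower (-0.74).

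Transcripts of the translation apparatus mostly rose, apart from the ribosomal proteins. Of 15 snoRNA host transcripts, whose spliced RNA is often removed during translation, 10 were higher and 1 lower. Over all genes these shares were 34.5% and 34.9%. Snhg1 had 818, 719.6 and 1050.5 normalized counts in control and 15431, 14072 and 13826 in Gln-free cells. Zfas1 had 1255, 941 and 1171 in control and 13971, 14943 and 13727 in Gln-free cells. Snhg12 rose 12.3-fold. Gas5 rose 5.86-fold, and the groups were separate in these 4 genes, as in 73.6% of all genes. Snhg18 fell from 87.7, 55.4 and 55.1 to 14.6, 14.4 and 14. Of 38 ribosome biogenesis genes 29 were higher and 5 lower, led by Nop58 (1.58), Nop14 (1.56) and Ddx10 (1.15), with the rRNA methyltransferase Fbl lower (-0.42). Of 30 initiation factors 17 were higher and 7 lower. Eif2s2 and Eif2s1, subunits of eIF2, rose 3.1-fold and 2.1-fold, and Eif4a2 rose 3.27-fold while its paralog Eif4a1 fell 1.61-fold. Eif2b5, the catalytic subunit of eIF2B, fell 2.29-fold. The 81 cytosolic ribosomal protein genes had 23 higher, 21 lower and 37 not called. Their median log2 fold change lay just below 0, and above 0 with quantile normalization or without control replicate 1. Rpl37a, Rpl41 and Rpl22l1 had the largest log2 fold changes, -1.47, -1.42 and 1.18. Under quantile normalization 39 were higher and 14 lower, so the direction of the ribosomal protein list depended on the scaling, and many of these genes have processed pseudogenes.

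Degradation genes were divided by function. In the lysosome list 13 of 38 genes were higher and 21 lower, beside 34.5% and 34.9% of all genes. A division made after the values were seen separates the proton pump from the rest. Of 12 V-ATPase subunits and partners 10 were called higher and 0 lower, with a median of 0.62, and of the 26 other members 3 were higher and 21 lower, with a median of -0.57. Atp6v1d, a pump subunit, rose from 1915, 1774 and 1887 to 3980.3, 3785 and 3836. Glb1, a galactosidase, fell from 1589, 1614 and 1319 to 314, 361 and 370.4. Neu1, a sialidase, fell 3.51-fold, with Ctsc and Ctsh, cathepsins, at -1.82 and -1.73 as log2 fold changes. Of 34 autophagy genes 15 were higher and 8 lower. The cargo receptor Sqstm1 rose from 22165, 21898 and 17975 to 72589.9, 72534 and 67832, and Atg3 and Atg12, of the conjugation machinery, 3.1-fold and 2.91-fold, while Tecpr1 fell 4.27-fold. Of 35 proteasome genes 18 were lower and 5 higher, with the activator Psme1 lowest (-1.99).

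Amino acid sensing genes had 9 higher and 7 lower of 22, beside 34.5% and 34.9% of all genes. The folliculin partners Fnip1 and Flcn rose 4.6-fold and 2.12-fold and Rragd, a Rag GTPase, 2.94-fold. Castor2, an arginine sensor relative, fell 2.7-fold, Sesn1 2.59-fold and Tfeb, a regulator of lysosome genes, 2.45-fold, while Sesn2, the ATF4-responsive sestrin, rose 2.4-fold. The kinase Mtor had a log2 fold change of -0.48.

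Most respiratory chain genes changed by less than 2-fold. Of 36 nuclear genes of complex I 6 were higher and 13 lower, beside 34.5% and 34.9% of all genes. None changed by 2-fold, with the extremes at Ndufs4 (0.92) and Ndufv3 (-0.88). Of 39 for the other complexes 6 were higher and 21 lower, led by Cycs, cytochrome c (0.93), and Atp5g2, an ATP synthase subunit (-1.03). Of 10 transcripts of the mitochondrial genome 4 were higher and 1 lower. The subunit mt-Cytb rose from 43673, 43643 and 56976 to 84231, 89671 and 80510.0. The others called higher were mt-Nd4 (log2 fold change 0.49), mt-Nd2 (0.25) and the low mt-Co3, at 23.7, 7.08 and 20.7 in control and 29.2, 39.2 and 36 in Gln-free cells, whose call was lost with edgeR and DESeq2. The calls of mt-Co3 and mt-Nd2 were also lost when some single libraries were left out. mt-Nd1 fell from 55783, 61894 and 66158 to 49502, 51281 and 46896, and its call was lost without Gln-free replicate 3 and with quantile normalization. Reads of mitochondrial genes can be shared with nuclear copies.

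Most ligands of the ErbB receptors rose, while the receptors Erbb2 and Erbb3 fell. Of 22 receptor tyrosine kinases and ErbB ligands 12 were higher and 7 lower, beside 34.5% and 34.9% of all genes. The ligand Areg, amphiregulin, had 1553, 1431 and 1639 normalized counts in control cells and 10881, 10747 and 10998 in Gln-free cells. Nrg1, neuregulin, had 546, 599 and 606 in control and 3448, 2817 and 2792 in Gln-free cells. Hbegf and Btc rose 2.0-fold and 1.58-fold, and Tgfa was not called (-0.13). The coreceptors Erbb2 and Erbb3 fell 2.34-fold and 6.44-fold and Ddr1, a collagen receptor, 3.13-fold. Fgfr4 fell from 134, 153 and 162 to 6.27, 2.06 and 8.01. Of the 7 ligands listed, 6 thus rose, with Egf low at 26.1, 4.72 and 10.0 in control and 37.6, 58.9 and 34 in Gln-free cells. Of 15 AP-1 and EGR factors 12 were higher and 1, Jund, lower. Egr2 rose from 2.37, 1.18 and 10.0 to 29.2, 37.2 and 46, and Egr1 from 327, 311 and 281 to 1038, 1472 and 1061. Jun, a core AP-1 subunit, rose 2.77-fold, Fosl1 3.34-fold, Mafk 3.22-fold and Fos 3.1-fold. Junb was not called (-0.05).

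Feedback and output genes of the ERK pathway had 9 higher and 7 lower of 17, beside 34.5% and 34.9% of all genes. The phosphatases Dusp5 and Dusp6 rose 3.18-fold and 1.65-fold, the receptor Epha2 from 12871, 13653 and 12362 to 40792, 37953 and 37047 and Phlda1 2.69-fold. The ETV factors Etv4 and Etv5 fell 1.49-fold and 1.62-fold and Spry1 1.78-fold, while Spry2 rose 1.96-fold, so members read as outputs of ERK took both directions.

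In the MYC network 7 genes were higher and 4 lower of 13, beside 34.5% and 34.9% of all genes. Myc had 4166, 4122 and 3760.3 normalized counts in control and 23557, 22475 and 21809 in Gln-free cells (log2 fold change 2.49, adjusted p = 1.37e-10, limma). Txnip and Arrdc4, targets of the glucose-sensing factor MondoA, rose as well. Txnip went from 2095, 2192 and 1745 to 9467, 10634 and 11089.5, and Arrdc4 from 28.4, 25.9 and 7.52 to 115, 159 and 92.1. Among MYC antagonists Mga and Mxd1 rose 3.22-fold and 1.87-fold and Mxi1 and Mxd3 fell 2.05-fold and 7.42-fold. Mycn was low in both groups (23.7, 47.2 and 21.3 in control and 6.27, 0 and 4.0 in Gln-free cells).

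Stress and death genes were mixed. Of 18 members 7 were higher and 8 lower, beside 34.5% and 34.9% of all genes. Gadd45g, a growth arrest gene, had 658, 626 and 612 in control and 9287, 7815 and 7253 in Gln-free cells. Gadd45b had 351, 352 and 278 in control and 1741, 1525 and 1339 in Gln-free cells. Bmf, a proapoptotic BH3-only gene, fell from 1206, 1397 and 1240.3 to 31.3, 39.2 and 58 (log2 fold change -4.91, adjusted p = 8.11e-10, limma). Bok, another member of the BCL2 family, fell 3.24-fold. Of the other BH3-only genes, Pmaip1 (NOXA) rose 2.84-fold, Bbc3 (PUMA) 1.62-fold and Bcl2l11 (BIM) 1.28-fold. The death receptor Tnfrsf10b, a known CHOP target, fell 2.16-fold. Of 13 p53 targets 5 rose and 7 fell. Trp53inp1, Cdkn1a, Mdm2 and Aen rose by 1.81, 1.46, 1.18 and 1.02 on the log2 scale, and Gtse1, Sesn1, Perp and Bax, called lower, had -2.07, -1.37, -0.84 and -0.36.

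Smaller lists held several of the largest single changes. Of 8 aryl hydrocarbon receptor genes tested 4 were higher and 1 lower, beside 34.5% and 34.9% of all genes. Cyp1a1 had 20.1, 23.6 and 26.3 in control and 826, 670.1 and 672 in Gln-free cells. Tiparp, a feedback inhibitor, had 425, 427 and 772 in control and 5562, 4747 and 4426 in Gln-free cells. Cyp1b1, a second cytochrome, rose 4.2-fold. Aldh3a1 fell from 936, 764 and 774 to 60.6, 35.1 and 90.1, and the receptor Ahr was not called. Among glycogen genes Stbd1 was the 1 member that rose, and 6 of 8 fell, led by the phosphorylase Pygb (-1.85) and the branching enzyme Gbe1 (-1.45). Of 16 cytokine and chemokine genes tested 6 were higher and 4 lower, beside the same shares of all genes. Beside Ptgs2, the NF-κB inhibitors Tnfaip3 and Nfkbia rose by 1.15 and 1.01 on the log2 scale and Csf2 from 10.7, 14.2 and 10.0 to 41.8, 38.2 and 22. Il33 and Cxcl5 fell, with log2 fold changes of -1.06 and -2.04, and Il18 was low at 41.5, 24.8 and 32.6 in control and 2.09, 2.06 and 0 in Gln-free cells. Of 17 MHC and interferon genes 10 were lower and 4 higher. Stat2 fell 3.91-fold, Tapbp, which loads peptide on MHC class I, 2.94-fold and Irf1 2.92-fold, while Nlrc5, an activator of MHC class I genes, rose from 4.74, 4.72 and 3.76 to 48, 33 and 32, the RNA sensor Ddx58 2.59-fold and H2-K1 1.28-fold. MHC genes are near-identical among themselves, so their counts are uncertain.

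Epithelial genes fell, and in the mesenchymal list 3 regulators rose while structural genes fell. Of 19 keratin and junction genes 15 were lower, 12 at least 2-fold, and 1 was higher. Over all genes these shares were 34.9%, 16.6% and 34.5%. Krt19 had 117324, 117201 and 88772 normalized counts in control and 27314, 25045 and 26647 in Gln-free cells. Cdh1, E-cadherin, had 25415, 25986 and 23382 in control and 9162, 9670.1 and 9957 in Gln-free cells. Epcam fell 6.25-fold, Jup, plakoglobin, 4.41-fold, Elf3, an epithelial factor, 4.64-fold and Cldn4 from 45, 61.3 and 63.9 to 4.18, 2.06 and 2.0, while F11r, a junction adhesion molecule, rose 1.82-fold. Groups were separate in each of these genes, as in 73.6% of all genes. The sum of the 10 epithelial markers was 401133 to 504045 in control and 178003 to 191981 in Gln-free cells, and the part that the marker sums of other cell types have in these falls was not tested. In the mesenchymal list 3 of 15 were higher, all regulators. Zeb2, a repressor of epithelial genes, rose from 196, 264 and 333 to 2234, 2513 and 2255. Snai2, another repressor, rose from 259.6, 237 and 227 to 1589.6, 1824 and 1696. Zeb1 rose 1.99-fold, while Twist1 and Twist2 were not called. Vim, Fn1 and Col6a1, which build the mesenchymal cytoskeleton and matrix, and S100a4 fell 1.81-fold, 2.17-fold, 15.2-fold and 19.2-fold. Of 14 genes of classical PDAC 6 rose and 7 fell. The factors Gata6, Gata4, Foxa2 and Onecut2 rose by 0.46 to 0.83 on the log2 scale, as did Cldn18, a junction gene of this subtype (0.60), while Hnf4a fell (-0.58). The secretory genes Muc1, Lgals4 and Ctse fell 11-fold, 10.4-fold and 5.76-fold, and Muc5ac fell from 287, 256 and 233 to 12.5, 4.13 and 4.0.

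To show where loss of Gln and block of Gln-using enzymes differ, Gln-free and DON cells were compared directly, without the control libraries, on reads scaled together over the 9 cultures. Of 13383 genes 9207 (68.8%) were called, 4683 (35.0%) higher and 4524 (33.8%) lower without Gln. Mitotic genes lay near the typical gene, with a median log2 difference of 0.01 and 10 higher and 13 lower of 34. ISR regulators had 5 higher and 11 lower of 20, with a median of -0.19. The enzymes of asparagine, serine and folate metabolism were lower without Gln than after DON in 13 of 15 genes (median -0.90). The ERK list was higher in 15 of 17 genes (median 1.46), the AP-1 and EGR list in 13 of 15 (0.87), the cytokine list in 11 of 13 (1.57) and keratins and junctions in 13 of 18 (0.75). Ribosomal proteins were lower in 71 of 81 (median -0.41).

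Single members gave the sharpest contrasts, and control values are given beside them. On the shared scale Ereg had 360.1, 383 and 631 in control, 9082, 8319.8 and 7781 in Gln-free and 439.5, 413 and 357 in DON cells, a log2 difference of 4.38 (adjusted p = 5.69e-14, limma). Gadd45g had 678, 647 and 625 in control, 9394, 7909 and 7339 in Gln-free and 348, 386 and 356 in DON cells. For Cyp1a1 the values were 20.8, 24.4 and 26.9, 836, 678 and 679.6 and 11.7, 14.6 and 21.5 in the same order. In these genes the Gln-free cultures were high and the DON cultures in or near the control range or below it. Oga was above control without Gln (12342, 12898 and 12103 against 5326, 5762 and 6086) and below it after DON (1042, 1109.6 and 1169). Impdh2 went the other way, with 6994, 6468 and 6492 without Gln, 11198, 10702 and 8946 in control and 34293, 38022 and 30934 after DON. Pck2 had 1744, 1896 and 1915 without Gln, 4667, 4546 and 3574 in control and 9348, 9716 and 9266 after DON. Both genes were below control without Gln and above it after DON. Angptl6 was above control in both, at 529, 469 and 629 without Gln and 2451, 2818 and 2286 after DON (log2 difference -2.22). Slc16a3, near 0 without Gln, had 402, 243 and 381 after DON against 2472, 3349 and 2242 in control.

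**Figure D5:**
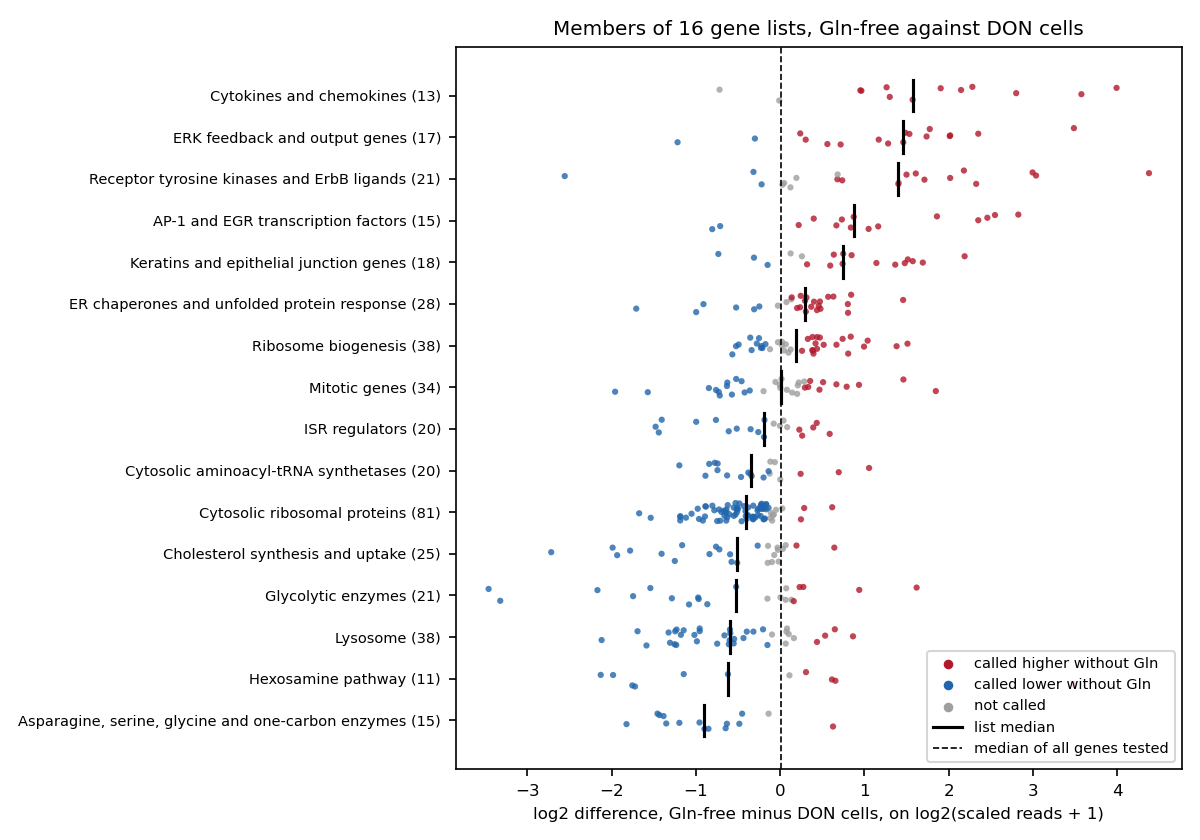
Log2 difference of Gln-free minus DON cells for each member of 16 gene lists, on log2(scaled reads + 1), with the number of members tested in parentheses. Red and blue points were called higher and lower without Gln by limma, black bars are list medians, and medians run from -0.90 for asparagine, serine and folate enzymes to 1.57 for cytokines.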

How the data were processed

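RNA of 3 control, 3 Gln-free and 3 DON cultures was sequenced by the study's provider, and the authors aligned and normalized it (HISAT2 and DESeq2 in the methods, while the submitters' processing notes name STAR 2.5 and GRCm39). The deposited values are normalized counts, a signal equal to each gene's read count divided by 1 size factor per library and made separately for each pair of groups, so levels were compared only within a table. Columns of the authors' own comparisons (fold changes and p-values) were not used. In every library but Gln-free 3, at least 99.9964% of values came out as whole reads, to within 0.0051 of a deposited unit, when divided by the smallest step of their library. The step of Gln-free library 3 is close to 1, so rounding cannot be told from whole reads there. Between 69.6% and 72.7% of read counts from 1 to 20 were even.

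Values were tested with limma 3.58.1 on log2(value + 1) with a trended prior (genes with a mean of at least 10, Benjamini-Hochberg adjusted p under 0.05). Gln-free and DON libraries were scaled together from recovered reads by the median of ratios. edgeR 4.0.16 and DESeq2 1.42.0 on recovered reads were alternatives, and the scripts were tested on simulated data. Named are the 10 largest rises and falls whose mean reached 100 and whose groups were separate, the 4 largest called changes of each list, its exceptions and defining members, and the largest differences from DON cells. The members and lists were chosen with earlier results of these data known. With 3 against 3 the smallest exact two-sided permutation p is 0.1, so no single-gene permutation test was run. Where the text counts 0 genes in a direction, the count is over adjusted p-values. Some genes are not reported here.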

Additional observations from a re-analysis of the deposited data

How the results depend on the processing

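The count of 9292 genes called became 9253 with edgeR, 9117 with DESeq2, 9400 with a pseudocount of 10, 9792 with a mean of at least 1 and 8308 with at least 50. It fell to 4089 when a 2-fold change was also required. Leaving out 1 library gave 8456 to 9704. Quantile normalization gave 9334, with 4870 higher and 4464 lower, and moved the median of all genes to 0.05. Gene lists with a median of at least 2-fold numbered 9, and 8 to 10 under the alternatives and with 1 library left out. Of 784 list medians recomputed 11 moved by more than the replicate spread, and the sign changed in 4 lists with medians near 0 (ribosomal proteins, amidotransferases, serine and one-carbon enzymes, amino acid sensing). Among 5295 refits of named genes 0 turned a called direction and 45 lost the call, mostly with 1 library left out, in Shmt2, Phgdh, Rb1, Acsl4, mt-Co3, mt-Nd1, mt-Nd2, Ccnd1, Abca1, Bcl2l11, Odc1 and Ppp1r15b. The cause was not tested. With the promoter window limited to the bases before the start, matches fell to 3 tRNA synthetases (C/EBP-ATF element), 12 mitotic genes (homology region), 8 replication genes (E2F core) and 2 ribosome biogenesis genes (E-box).

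With the numbers of the columns as a replicate block, Gln-free against control cells gave 9056 calls beside 9292, and Gln-free against DON cells 9237 beside 9207. The deviations of same-numbered libraries correlated at 0.027, -0.025 and -0.032 with control cells and at -0.028, 0.001 and 0.083 with DON cells, and not every library correlated best with its own number, so the numbers were not taken as pairs. Other alternatives gave 8348 to 9271 calls and leaving out 1 library 8575 to 8894. Depth limits genes under 10 normalized counts, which were not tested, and genes at 0 to 3 reads in 1 group, whose fold changes have wide intervals. The scaling sets the typical gene at no change.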

Other observations

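Noncoding genes took another balance than coding genes. Of 911 long noncoding genes tested, 284 were called higher and 147 lower in Gln-free cells, and their median log2 fold change was 0.39. Of 11781 protein-coding genes 4198 were higher and 4405 lower, with a median of -0.02. Fold changes of at least 2 were reached by 232 long noncoding genes that rose and 111 that fell. The median exonic length was 4279 bases for genes that rose at least 2-fold and 3979 bases for those that fell as much, beside 4233.5 for all genes with a length.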
